A study of Mus musculus with 10 samples.

Results

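Peaks of ZFP266 that carry neither a B1 SINE nor an AP-1 word made up a large class of the DamID-seq peak list. They were chosen from the 15119 deposited peaks by 2 criteria: no overlap with a B1 SINE, taken as a blastn match of at least 80 bp and 70% identity to a B1 consensus, and no exact 7-base AP-1 word (TGACTCA or TGAGTCA) on either strand. In all, 5645 peaks, 37.3% of the list, met both criteria. Of the other 9474 peaks, 4500 held an AP-1 word alone, 2786 a B1 SINE alone and 2188 both. The rank of the class depended on the AP-1 word: with the middle base free (TGANTCA) 1388 of its peaks moved to AP-1 alone, which then held more peaks than the 4257 left.

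ZFP266 belongs to the KRAB zinc finger proteins, many of which bind transposable elements and recruit the TRIM28 corepressor complex. B1 is a short interspersed element found in many copies in rodent genomes, often near genes, and AP-1 is the FOS and JUN dimer that marks many fibroblast enhancers. In DamID a DNA adenine methyltransferase (Dam) fused to a protein methylates GATC sites near the places that protein visits, and an enzyme that cuts only methylated GATC releases the fragments that are sequenced.

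The series asked where ZFP266 binds in mouse embryonic fibroblasts (MEFs) of the 129 strain. Each of 5 Dam-ZFP266 samples received the plasmid PGK-mO-Dam-Zfp266, and each of 5 Dam only samples received PGK-mO-Dam, which makes the enzyme without a partner. In both groups the PGK promoter drove mOrange with Dam behind it, translated at a low level by reinitiation, and per the labels mOrange-positive cells were sorted 48 h after nucleofection. The authors merged all 10 samples into a single peak list, so this list, the only file used here, holds no value per sample, no read depth and no replicate error, and the p-values below measure the spread among peaks of this list and not among samples.

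Members were short peaks of moderate strength. DpnII cuts at GATC, and every peak began and ended at such a site and so spanned 1 or more whole DpnII fragments. The median member was 1479 bp long (quartiles 971 and 2084 bp), against 1991 bp for the other peaks, and 4031 members (71.4%) were a single fragment, against 46.3% of the other peaks. A longer stretch has more room for a B1 SINE or an AP-1 word, so part of this follows from the criteria themselves. The members made up 58.3% of the shortest of 10 equal length groups of the list (193 to 788 bp) and 13.0% of the longest (3590 bp and over).

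The signal value, the enrichment of Dam-ZFP266 over Dam only as the peak caller gave it on a scale that the file does not state, had a median of 0.935 in the members (quartiles 0.803 and 1.09). The median was 0.849 in peaks with AP-1 alone, 0.930 in peaks with B1 alone and 0.842 in peaks with both. Signal fell with length: among members the median was 1.02 in the shortest length group and 0.733 in the longest. In a linear fit over all peaks with length and number of fragments as covariates, the difference of members from other peaks was -0.0148 (95% interval -0.0230 to -0.00665, adjusted p = 0.00182, n = 15119 peaks). The difference was small and depended on the peaks compared: against the peaks with AP-1 alone it was 0.00908 (adjusted p = 0.189, n = 10145). It also missed the threshold with TGANTCA as the AP-1 word (-0.00787) and in peaks of 1 fragment (-0.0127).

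A q-value under 0.05 together with a signal value above 1 was reached by 1600 members (28.3%, Wilson 95% interval 27.2% to 29.5%), where 26.4% of all peaks reached it. By score, which ranks peaks by their q-value, the members were 41.6% of the lowest of 4 equal groups and 30.1% of the highest. They were spread over the whole genome: their share of the peaks ran from 31.0% on chromosome 11 to 41.3% on chromosome 13, and all 5 peaks on the Y chromosome were members.

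Peaks just inside and just outside the limits had close signal values. Of the members, 5277 had no blastn match to the B1 consensus at an e-value limit of 10 over the whole genome. Short or diverged remnants of B1 can escape this search. A further 74 members had a match of 70 to 79 bp, just short of the limit, with a median signal value of 0.952. Just past the limit were 74 peaks with no AP-1 word and a longest match of 80 to 89 bp, with a median of 0.940. On the AP-1 side, 1388 members (24.6%) held the word with its middle base free, TGANTCA, with a median of 0.891 against 0.947 in the members without it. These medians were not adjusted for length, and the contrast was not particular to this word. Members with a KLF word had a median of 0.892 against 0.953 without, at median lengths of 1740 and 1338 bp. The 2912 peaks with exactly 1 AP-1 word and no B1 SINE had a median of 0.872.

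Many members lay close to an element that they did not hold. A B1 SINE lay within 1000 bp outside the peak in 1532 members (27.1%) and an AP-1 word in 2316 (41.0%). For comparison, a full count was made over all 15379378 stretches of 1 to 6 neighbouring DpnII fragments of GRCm38 that hold neither element, weighted to the fragment numbers and lengths of the members, and 5622 members had such a counterpart. In these genome stretches the shares were 14.3% for B1 and 27.4% for AP-1, so both elements were found more often around the members. This is a description of the whole genome with no test, and a B1 SINE close by was not particular to the members. Within 500 bp outside the peak one lay by 979 members (17.3%), by 615 of the 4500 peaks with AP-1 alone and by 2091 of all 9474 other peaks.

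Another peak lay within 5000 bp of 2191 members (38.8%), a share close to that of the other peaks (37.9%), and for 1349 of these members (61.6%) the nearest such peak held a B1 SINE or an AP-1 word, about the share of such peaks in the whole list (62.7%). A group of 1502 members (26.6%) stood alone, with neither element within 1000 bp and no other peak within 5000 bp. Their median signal value was 0.921 and their median length 1676.5 bp. A KLF word was present in 34.1% and a TEAD word in 29.7% of them, beside 34.4% and 25.1% of all members. These shares were not matched for length, and the median length of all members was 1479 bp.

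By the midpoint of the peak, 2787 members (49.4%) were intergenic, 2560 (45.3%) intronic, 150 (2.66%) exonic and 148 (2.62%) in a promoter, taken as 1000 bp before to 100 bp after a transcript start. Of the exonic members 67 fell in coding exons, 57 in untranslated exons and 26 in exons of non-coding transcripts. The intronic members touched 1674 different genes, and 1278 of these members (49.9%) lay in the first intron. That share was not set beside the other peaks or the genome, so it is a description only. The median intergenic member was 33482 bp from the nearest protein-coding gene, and 104 were over 500 kb away. Over all members the median distance to a transcript start was 26121 bp. It was 35693 bp in peaks with AP-1 alone and 12431.5 bp in peaks with B1 alone.

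Compared with the genome stretches, promoters were 2.08 times and introns 1.26 times as frequent among the members, exons about equally frequent (0.984 times) and intergenic midpoints less frequent (0.824 times). Compared with the other peaks, at equal length and fragment number, the promoter share did not differ detectably (odds ratio 1.01, 95% interval 0.803 to 1.27, adjusted p = 0.998, n = 15119). The exon share was higher in the members (odds ratio 1.48, 1.16 to 1.90, adjusted p = 0.00689, n = 15119), but missed the threshold with q under 0.05 and signal value above 1 (1.26), in the upper of 2 equal groups by score (1.50) and in peaks of 1 fragment (1.29). Introns gave 1.02 (0.951 to 1.10, adjusted p = 0.920, n = 15119) and intergenic midpoints 0.944 (0.877 to 1.02, adjusted p = 0.291). Against the peaks with AP-1 alone both passed the threshold (1.15, adjusted p = 0.0105, and 0.821, adjusted p = 8.41e-05, n = 10145), as they did with B1 SINEs of at least 100 bp at 85% identity (1.09 and 0.864), and intergenic midpoints also with TGANTCA (0.883). In all, 9 of 29 such fits (31%) reached an adjusted p under 0.05 by the Benjamini-Hochberg method.

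The members were richer in G and C than the genome stretches (mean 43.6% against 41.2%), richer in CpG (10.1 against 8.22 per kb) and poorer in repeat-masked bases (25.3% against 32.9%). The stretches were counted from sequence alone, whether or not reads can be placed in them. What part this had in the repeat share was not tested. The GC content of the members was close to that of the other peaks, with a fitted difference of -0.0735 percentage points (-0.270 to 0.123, adjusted p = 0.840, n = 15119). With TGANTCA as the AP-1 word the difference turned to 0.485 and passed the threshold (adjusted p = 0.000171, n = 15119). Along the peak GC content was nearly flat, at 43.6% in the first of 5 equal parts, 43.4% in the middle and 43.6% in the last.

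Words for known factors were searched as exact matches on both strands. A match is a description and not a binding site. KLF factors bind CACCC and GC boxes, CTCF is the zinc finger protein at many chromatin loop anchors, and TEAD factors are the DNA-binding partners of YAP and TAZ in fibroblasts. Of the 3, KLF words (CCACACCC, CCACGCCC, CCCCACCC or CCCCGCCC) were the most widespread, in 1940 members (34.4%), with 705 members holding more than 1. TEAD words (ACATTCC) were in 1416 members (25.1%), and CTCF words in 58 (1.03%). KLF and TEAD words occurred together in 553 members, and 2822 members held none of the 3 kinds.

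Against the genome stretches each of the 3 was more frequent. KLF words were in 34.2% of the members with a counterpart (Wilson 95% interval 33.0% to 35.5%) and in 24.7% of the stretches, a ratio of 1.39. CTCF words gave 1.01% (0.783% to 1.31%) against 0.734%, a ratio of 1.38, and TEAD words 24.9% (23.8% to 26.0%) against 20.7%, a ratio of 1.21. Among the 3264 KLF words in members the most common form was CCCCACCC (1659), followed by CCACACCC (871), CCCCGCCC (474) and CCACGCCC (260). The most common of the 59 CTCF words was CCAGCAGAGGGC (13), followed by CCAGCAGGTGGC (8). Within the peaks the density of KLF words was 0.370 per kb in the middle of 5 equal parts, and 0.325 and 0.350 per kb in the outermost. That of TEAD words was 0.189 per kb in the middle and 0.172 and 0.195 per kb at the ends, and was highest in the parts on either side of the middle (0.211 and 0.210 per kb).

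Against the other peaks the KLF result depended on how both elements were treated. Over all bases KLF words were less frequent in the members (odds ratio 0.824, 95% interval 0.765 to 0.887, adjusted p = 4.54e-06, n = 15119). With TGANTCA as the AP-1 word this call was lost (0.966, adjusted p = 0.592, n = 15119). Moreover, 1086 of the 8189 KLF words in the other peaks (13.3%) overlapped a B1 SINE, which members by definition lack. With those words left out, an alternative chosen after seeing the data, the odds ratio was 1.11 (adjusted p = 0.0163, n = 15119), although this leaves fewer bases to search in the peaks with B1. Against the peaks with AP-1 alone, which have no B1 SINE either, it was 1.13 (adjusted p = 0.0400, n = 10145), and 1.11 with GC content added (adjusted p = 0.124).

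CTCF words did not differ detectably between members and other peaks (odds ratio 1.10, 0.784 to 1.54, adjusted p = 0.936, n = 15119), nor did TEAD words (1.07, 0.989 to 1.17, adjusted p = 0.257). Only 1 CTCF word and 17 TEAD words in the other peaks overlapped a B1 SINE. With the B1 and AP-1 search widened by 500 bp on each side, TEAD words became more frequent in the remaining members (odds ratio 1.14, adjusted p = 0.0141, n = 15119). The odds ratio turned below 1, without passing the threshold, with TGANTCA as the AP-1 word (0.975, adjusted p = 0.719, n = 15119) and against the peaks with AP-1 alone (0.915, adjusted p = 0.189, n = 10145).

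Of the 20 further words, those for SRF (odds ratio 1.24, adjusted p = 0.00133, n = 15119), the octamer ATTTGCAT bound by POU factors (1.21, adjusted p = 0.00261), YY1 (AAGATGG, 1.17, adjusted p = 0.00133) and NF-Y (CCAATCA, 1.15, adjusted p = 0.00829) were more frequent in the members than in other peaks of equal length. None of these 4 stood above the genome stretches by more than a small margin, with ratios of 0.953, 0.914, 1.02 and 1.02. Each lost its call against the peaks with AP-1 alone, where the odds ratios were 1.17, 1.05, 1.12 and 1.04 (n = 10145). RUNX words (TGTGGTT), the site of fibroblast and blood regulators, were in 1779 members (31.5%), below the other peaks (odds ratio 0.871, adjusted p = 0.00158, n = 15119) but above the genome stretches (ratio 1.11). This call too was lost against the peaks with AP-1 alone (0.943, adjusted p = 0.383, n = 10145). It was also lost with TGANTCA as the AP-1 word (0.906), with q under 0.05 and signal value above 1 (0.890) and in the upper of 2 equal groups by score (0.880), and without repeat-marked bases the odds ratio turned to 1.07. Runs of 10 A were much less frequent in the members (odds ratio 0.520, adjusted p = 3.38e-57, n = 15119), but not against the peaks with AP-1 alone (0.978, adjusted p = 0.844), and 6140 of the 39722 runs in the other peaks overlapped a B1 SINE, an element that ends in an A-rich tail. With those runs left out, an alternative chosen after seeing the data, the odds ratio was 0.583 (adjusted p = 2.85e-39, n = 15119). This keeps any tail runs that lie beyond the blastn match, so what part B1 SINEs had was not tested. Runs were in 57.1% of the peaks with B1 alone, 62.0% of those with both and 33.3% of those with AP-1 alone.

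The other 14 words passed no threshold against the other peaks, with odds ratios from 0.746 to 1.18. The ratios to the genome stretches that follow were not matched for GC content either. Beside the genome stretches, the words CEBP (17 members, ratio 2.31) and NFI (11 members, ratio 1.80) stood highest but rested on few peaks. ETS words (CCGGAAG) were in 337 members at a ratio of 1.32, MYC-type E-boxes (CACGTG) in 1003 at 1.32 and CRE words (TGACGTCA), the site of CREB and ATF dimers, in 77 at 1.36. SOX words (CCATTGT) gave 0.980. A word 1 base away from AP-1 was in 96.6% of the members and in 94.7% of the stretches.

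The same count was made for all 8192 words of 7 bases, with each word and its reverse complement counted as 1. Of the 5708 found in at least 5% of the members or of the genome stretches, the 10 with the highest ratio all held a CG. They were led by ATGGCGG (5.44% against 3.35%, ratio 1.62), AATGGCG (1.62) and ACGGAGC (1.61). The lowest were rich in A and T, with ATATTAG (17.0% against 24.4%, ratio 0.700), GTATAAC (0.701) and ATAATAG (0.712). Among words without CG the highest were CTGGGCC (1.41) and CCAGGCC (1.39). The TEAD word ranked 2112 and the RUNX word 3424 of 8192 by this ratio. The 10 highest held 4 to 6 G or C bases, and the 10 lowest 0 to 2.

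The strongest members lay in Zfp266 itself, on chromosome 9, where 3 of the 5 peaks were members. Their signal values were 8.42 (chr9:20500868-20501170, intron 7), 6.85 (chr9:20501878-20503650, intron 6) and 5.24 (chr9:20505929-20506806, intron 4). The introns are those at the midpoints, and each of the 5 peaks also overlapped 1 or 2 exons, with 80, 81 and 168 bp of exon in the 3 members. The plasmid of the Dam-ZFP266 samples carries Zfp266. The authors ascribed the strong signal of these peaks to that plasmid and left them out of their heatmaps. What part its DNA had was not tested here. Outside this gene the highest value was 2.79.

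The next members by signal value were 2 very long single fragments of repeat. One spanned 30751 bp on chromosome 7 (chr7:64465607-64496357, signal value 2.79, q = 0.0908), 20578 bp from Apba2, which encodes an adaptor of amyloid precursor protein, and 96.3% of its bases were marked as repeats. The other, the longest member, spanned 79377 bp on the Y chromosome (chrY:4071861-4151237, signal value 2.62, q = 0.0470), 328278 bp from Gm3376, with 93.6% repeats and 269 RUNX words. Of the 5 longest members 3 were largely assembly gap, with unknown bases making up 98.4%, 95.3% and 74.2% of their length. In all, 7 members held unknown bases.

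The other members among the 10 highest were 450 to 3576 bp long. The third by signal value lay in intron 2 of the non-coding gene D030068K23Rik (chr8:109151438-109152443, 2.23, q = 2.44e-06), and the next was intergenic, 75009 bp from the angiotensin receptor gene Agtr2 (chrX:21562480-21565203, 2.22, q = 5.56e-06). A member in exon 7 of Polrmt (chr10:79739625-79742201, 1.98, q = 0.00107), the gene of the mitochondrial RNA polymerase, had a GC content of 59.8%, and held 3 KLF words and 1 TEAD word. A second member of Polrmt was centred on exon 14 (chr10:79736820-79738819, 1.53, q = 0.000287). A further 4 were intergenic, nearest to Etnk1 (2.09), Gm10654 (2.05), Tmem200a (1.94) and Trp53inp1 (1.92), the last a p53 target 3215 bp from its member.

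The words are shown where they occurred in the strongest members outside Zfp266. The D030068K23Rik member held both a KLF and a TEAD word, and the strongest member with a CTCF word lay in intron 20 of Ttc21a (chr9:119962317-119963806, signal value 1.60, q = 0.000502). Capitals mark the words, all on GRCm38. These members were chosen after their values were seen.
KLF and TEAD words in D030068K23Rik, chr8:109151930-109152040, forward strand: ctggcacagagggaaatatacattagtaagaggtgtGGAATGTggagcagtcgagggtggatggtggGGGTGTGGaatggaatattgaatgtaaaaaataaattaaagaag
CTCF word in Ttc21a, chr9:119963402-119963485, forward strand: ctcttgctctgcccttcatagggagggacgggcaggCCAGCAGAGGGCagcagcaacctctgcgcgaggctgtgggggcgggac

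Only 13 members were 300 bp or shorter. Of the 5 with the highest signal value, 4 are printed whole, from GRCm38, with KLF, CTCF and TEAD words and words 1 base away from AP-1 in capitals. They lay 16355 bp from Camk2g (signal value 1.79, q = 0.0128), in intron 1 of Trim25 (1.27, q = 0.0252), on exon 10 of Slc5a4b (1.27, q = 0.0839) and in intron 2 of Syne3 (1.12, q = 0.0356). The Slc5a4b member held the KLF word GGGTGGGG, and TGAGTCG, 1 base away from AP-1. The Camk2g member held TGATTCA. Among all 805342 DpnII fragments of 200 to 300 bp that hold neither element, 4.31% had a KLF word, 3.18% a TEAD word, 0.124% a CTCF word and 49.6% a word 1 base away from AP-1. The other 2 printed members held none of these words.
near Camk2g, chr14:20810371-20810653, forward strand: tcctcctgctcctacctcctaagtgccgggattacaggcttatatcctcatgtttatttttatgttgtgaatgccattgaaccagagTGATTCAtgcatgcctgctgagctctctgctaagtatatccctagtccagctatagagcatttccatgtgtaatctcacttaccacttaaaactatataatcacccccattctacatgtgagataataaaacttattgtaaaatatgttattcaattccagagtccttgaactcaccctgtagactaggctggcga
Trim25 intron, chr11:89000207-89000489, forward strand: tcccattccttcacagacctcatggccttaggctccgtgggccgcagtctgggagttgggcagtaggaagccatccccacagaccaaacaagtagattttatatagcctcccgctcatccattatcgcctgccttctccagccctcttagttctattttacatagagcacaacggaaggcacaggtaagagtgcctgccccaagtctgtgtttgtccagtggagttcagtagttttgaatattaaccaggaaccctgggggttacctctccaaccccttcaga
Slc5a4b exon, chr10:76072320-76072613, forward strand: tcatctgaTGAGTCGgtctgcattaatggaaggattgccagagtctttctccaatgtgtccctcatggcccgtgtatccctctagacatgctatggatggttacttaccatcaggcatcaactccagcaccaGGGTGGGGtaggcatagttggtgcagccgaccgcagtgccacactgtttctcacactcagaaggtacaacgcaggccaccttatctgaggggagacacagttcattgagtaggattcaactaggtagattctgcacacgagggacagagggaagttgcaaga
Syne3 intron, chr12:104991007-104991303, forward strand: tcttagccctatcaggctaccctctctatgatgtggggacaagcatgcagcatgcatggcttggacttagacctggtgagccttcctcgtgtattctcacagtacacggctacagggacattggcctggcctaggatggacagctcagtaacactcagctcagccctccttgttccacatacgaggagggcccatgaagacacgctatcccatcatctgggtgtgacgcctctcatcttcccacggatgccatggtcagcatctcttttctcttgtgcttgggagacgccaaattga

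Among the 148 promoter members the highest signal value belonged to Ccdc152 (chr15:3302929-3304299, 1.77, q = 0.000223), 88 bp before a transcript start by its midpoint. It was followed by Zfp110, a KRAB zinc finger gene (chr7:12833752-12835805, 1.49, q = 0.000989), and Tmem41a (chr16:21947722-21948928, 1.44, q = 0.00264). The remaining members of the 10 highest were at Pemt, which makes phosphatidylcholine (1.38), the olfactory receptor genes Olfr536 (1.38) and Olfr295 (1.36), the spindle checkpoint gene Mad2l1 (1.37), Adgrb2 (1.36), Ubfd1 (1.36) and Atxn1l (1.35). They ranged from CpG-poor receptor genes, with 2.10 CpG per kb at Olfr536, to CpG-rich starts, with 45.0 per kb at Mad2l1. The Adgrb2 member held 5 KLF words and 1 CTCF word.

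RefSeq promoter sequences on GRCm38, from 250 bases before to 50 after the start, were found for all 10 genes by symbol. The 3 by rank that lay wholly inside their member are printed, with the same words in capitals. No KLF, CTCF or TEAD word fell in them, and an ETS word was in those of Ccdc152 and Zfp110. Of all 32851 RefSeq promoter sequences, 29.7% had a KLF word, 8.86% an ETS word, 3.85% a TEAD word, 0.557% a CTCF word and 50.8% a word 1 base away from AP-1, which here only the Olfr536 sequence held.
Ccdc152 promoter, chr15:3303477-3303776, reverse strand: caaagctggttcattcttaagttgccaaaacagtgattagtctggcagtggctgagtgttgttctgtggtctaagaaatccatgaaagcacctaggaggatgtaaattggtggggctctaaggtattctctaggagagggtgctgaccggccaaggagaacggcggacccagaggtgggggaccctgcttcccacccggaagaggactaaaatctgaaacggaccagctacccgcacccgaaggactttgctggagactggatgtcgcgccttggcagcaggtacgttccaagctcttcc
Zfp110 promoter, chr7:12834511-12834810, forward strand: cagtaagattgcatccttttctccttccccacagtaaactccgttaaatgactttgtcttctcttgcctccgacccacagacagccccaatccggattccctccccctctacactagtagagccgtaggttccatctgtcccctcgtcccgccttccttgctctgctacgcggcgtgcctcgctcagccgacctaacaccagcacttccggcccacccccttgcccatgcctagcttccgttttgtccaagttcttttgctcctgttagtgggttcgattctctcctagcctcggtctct
Olfr536 promoter, chr7:140507269-140507568, reverse strand: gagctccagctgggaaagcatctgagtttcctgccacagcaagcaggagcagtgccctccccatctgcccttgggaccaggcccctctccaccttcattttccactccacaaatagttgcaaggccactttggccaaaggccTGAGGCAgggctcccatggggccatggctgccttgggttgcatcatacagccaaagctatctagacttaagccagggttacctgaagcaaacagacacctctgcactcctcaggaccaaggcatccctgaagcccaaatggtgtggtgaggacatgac

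The genes with the most members were long and had many peaks of any kind, so their counts are a description, beside the 37.3% of all peaks that were members. Rad51b, a homologous recombination gene, held 14 of its 20 peaks as members. Lrrfip1 had 11 of 15, Nrg1, a ligand of ERBB receptors, 11 of 23, Lhfp 10 of 16, and Kcnab1, a potassium channel subunit, 9 of 15. A further 7 genes had 8 members each. These were out of 12 peaks in Efna5, Hecw2 and Lpp, 9 in Fam107b, 19 in Ltbp1, 18 in Pakap and 20 in Sik3. Relative to its length Fam107b was the densest of these genes, with 10.3 members per 100 kb, and Nrg1 the sparsest, with 1.01. Efna5 encodes an ephrin ligand, Lpp a focal adhesion protein and Ltbp1 a protein that stores latent TGF-beta in the matrix.

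A member overlapped the gene body or its 5 kb flanks in 2335 of 21000 protein-coding genes (11.1%). Of 25 fibroblast and mesenchymal genes 8 did (32.0%), and these genes were long, with a median of 46574 bp against 17741.5 bp for all protein-coding genes. What part gene length had in this share was not tested. Runx1, a transcription factor gene, had 4 intronic members, the strongest at chr16:92618396-92619976 (signal value 1.16, q = 0.00692), and 1 of the others held a CTCF word. Runx2 had 1 in intron 5 (chr17:44499593-44500639, 1.19, q = 0.00569) with a TEAD word. Cdh2, which encodes N-cadherin, had 3 in intron 2, with signal values of 1.18, 1.00 and 0.777. Tead1 had 2 (0.973 and 0.929), and Wwtr1, which encodes the TEAD coactivator TAZ, had 2 (1.02 and 0.712). Twist2 (0.845) had 1 in intron 1, and those of Zeb2 (0.637) and Col3a1 (0.729) lay 1599 and 4328 bp outside the gene.

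The shares of the other lists ran from 0% to 20%, beside the 11.1% of all protein-coding genes, and are a description. Of 18 pluripotency genes only Esrrb had a member (intron 1, chr12:86395999-86397448, 1.08, q = 0.0263), and of 10 epithelial genes only Cdh1, which encodes E-cadherin, with 2 (0.952 and 0.994). Of 10 neural genes Map2 had 2 (0.760 and 0.972) and Tubb3 1 (0.732). Of 8 endothelial and blood genes Pecam1 had 2, 1 of them on exon 1 (1.23, q = 0.0708) and the other in intron 13 (0.528). None of the 11 repressor partner genes had one, among them Trim28 and Setdb1. Of 365 zinc finger genes with a Zfp number, 51 (14.0%) had a member, led by Zfp945 with 5, and by Zfp266, Zfp37 and Zfp809 with 3 each. DamID peaks give no expression, so these lists do not check the cell type.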

How the data were processed

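DamID-seq libraries from 5 Dam-ZFP266 and 5 Dam only samples were processed by the authors with FastQC, Cutadapt and BWA (GRCm38), counted per DpnII fragment with Rsubread and called with Daim (versions not given in the sources used here). The deposited list pools all samples. It gives each peak a deposited score with an upper limit of 1000, a signal value whose scale the deposited file does not state, and the authors' −log10 p-value and −log10 q-value. The authors' methods name a q-value under 0.05 and a log2 fold change above 1 as an example of their calling threshold, and the pair used here, with the signal value in place of the fold change, follows it. Only 26.4% of the list meets that pair. The methods name GFP where the labels name mOrange as the sorted marker, and the labels were followed. Read depth per sample cannot be read from this list, the only processed file used here.

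B1 SINEs were located with blastn 2.17.0, with a 145 bp consensus read from a picture of the study. Words were matched exactly on both strands. Location came from curated RefSeq transcripts. Members were compared with all other peaks by linear or logistic regression (statsmodels 0.14.6, two-sided Wald p) with length in 10 groups and fragments in 3 groups as covariates. Standard errors were grouped by 1 Mb, and p-values adjusted by Benjamini-Hochberg over 29 fits. Tested on simulated data, the length groups left odds ratios slightly too low. With log2 length and its square in their place the values of these data moved slightly, and in both directions. RUNX words rose to 0.873 and intergenic midpoints to 0.949. Promoters fell to 0.997 and introns from 1.023 to 1.019. Wilson intervals cover counting error only.

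Named genes were those at the 10 members of highest signal value outside Zfp266 and at the longest member, those with the 10 highest member counts (ties kept), the 10 promoters of highest signal value, and every gene with a member from lists of at most 40 genes. Members and lists were chosen with earlier results of these data known. Some members and genes that this rule selects are not reported here.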

Additional observations from a re-analysis of the deposited data

How the results depend on the processing

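No paired analysis was possible because the list, the only file used here, pools the samples, although replicate numbers are shared between the groups. For the same reason no replicate was left out in turn. The list gives no depth, so the limits it sets are unknown. The cause of the changes below was not tested unless it follows from how the alternative was built.

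The number of members was 3518 with the search widened by 500 bp on each side, 4257 with TGANTCA, where the class is no longer the largest, 1600 with q under 0.05 and signal value above 1, and 2567 in the upper of 2 equal groups by score. It stayed between 4031 and 6437 under the other 6 alternatives that change it. The signal value difference missed the threshold with TGANTCA as the AP-1 word (-0.00787) and in peaks of 1 fragment (-0.0127). It also did with q under 0.05 and signal value above 1 (-0.0175) and in the upper score group (-0.0129), which choose peaks by their strength and so say nothing on this difference. It turned to 0.00908 against the peaks with AP-1 alone and 0.00946 with GC content added to that comparison, without passing the threshold.

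The promoter odds ratio turned below 1 with B1 of at least 50 bp (0.984), in peaks of 1 fragment (0.883), with promoters of 2000 and 500 bp (0.916), with GENCODE basic transcripts (0.963), with GC content added (0.948) and with log2 length and its square (0.997). It passed no threshold in any of the 17 alternatives. The KLF odds ratio was 0.966 with TGANTCA, not past the threshold. It turned to 1.13 against the peaks with AP-1 alone, 1.14 without repeat-marked bases and 1.11 without words that overlap a B1 SINE, each past the threshold. With GC content added to the comparison with AP-1 alone it was 1.11, not past the threshold. The CTCF odds ratio turned to 0.801 with the wider search. The TEAD odds ratio passed the threshold there (1.14), and turned to 0.975 with TGANTCA and to 0.915 against the peaks with AP-1 alone, with and without GC content added.

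The exon odds ratio missed the threshold with q under 0.05 and signal value above 1 (1.26), in the upper score group (1.50) and in peaks of 1 fragment (1.29). The intron odds ratio passed it with B1 of at least 100 bp at 85% identity (1.09) and against the peaks with AP-1 alone (1.15, with and without GC content), and turned to 0.970 with the wider search. The intergenic one passed it with the stricter B1 (0.864), with TGANTCA (0.883) and against the peaks with AP-1 alone (0.821, or 0.829 with GC content). The GC content difference turned to 0.0231 with the stricter B1, 0.485 with TGANTCA, past the threshold, and 0.185 against the peaks with AP-1 alone. RUNX words missed the threshold with TGANTCA (0.906), with q under 0.05 and signal value above 1 (0.890), in the upper score group (0.880) and against the peaks with AP-1 alone (0.943, or 0.954 with GC content). They turned to 1.07 without repeat-marked bases, and runs of 10 A to 1.00 against the peaks with AP-1 alone with GC content added. The SRF, NF-Y, YY1 and octamer words each missed the threshold in 4 or more alternatives. For the 14 words that passed no threshold, 63 of 235 odds ratios changed direction and 1 passed it. That 1 was for words 1 base away from AP-1 with TGANTCA as the AP-1 word (0.692). This alternative takes TGAATCA and TGATTCA, which are such words, out of the members by construction, so it says nothing on them. Runs of A and of CA could not be fitted without repeat-marked bases, nor NFI and NRF1 words among peaks with q under 0.05 and signal value above 1. The alternatives without peaks that hold assembly gaps, without words that overlap a B1 SINE, and with GC content added to the comparison with AP-1 alone were chosen after seeing the data.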
